A study of Mus musculus with 6 samples.

Results

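The collagens of mouse taste cells were taken as every gene whose symbol begins with Col, a number, the letter a and a further number. The table of 23361 genes held 45 such rows. Of these, 44 encode collagen chains, and Col4a3bp, whose older name recalls a collagen, encodes a ceramide transfer protein and was kept apart. The 44 chains were split into 11 fibrillar chains, 9 basement membrane chains and 24 chains of other types.

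RNA was sequenced from isolated taste cells of the circumvallate and foliate (CV/Fol) papillae of C57BL/6 mice, with no genetic change or treatment named for either age. The 2 month group had 3 pools of 4 mice and the 6 month group had 3 pools of 3 mice. The tongue epithelium was loosened with collagenase and dispase and peeled away, and the taste cells were then drawn off by gentle suction, so that cells were not sorted by a marker. The sample labels give the younger age as 2 months, although the design text of the series names 3 months in one place and 2 months in another. Expression is given as FPKM, a fragment count scaled to transcript length and sequencing depth, and the authors' value for each age stands for its 3 pools. With 1 value per age there was no replicate check of any difference, and no difference given here was tested.

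The labelled cell type was compared with its markers first. All 9 taste cell markers reached a mean of 1 FPKM, with a summed level of 499 FPKM at 2 months and 456 at 6 months. The most abundant was Krt8, a keratin of differentiated taste cells, at 234 FPKM and 197 FPKM. All 7 basal keratinocyte markers were also present, led by Krt5, a keratin of the basal layer of stratified epithelia, at a level of 2179.8 FPKM at 2 months and 1961.7 at 6 months. The isolated cells therefore held transcripts of both marker lists at both ages, and none of these 16 markers differed by 1.5-fold or more between the ages. The paper describes Krt14, one of the basal keratinocyte markers, as expressed in lingual epithelium and in regenerating taste cells. That list therefore does not separate keratinocytes from renewing taste cells.

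Collagens are built from chains with a repeating glycine pattern that wind around each other into a rope-like helix. Fibrillar collagens form the tensile fibers of connective tissue and are made mostly by fibroblasts, whereas type IV collagen forms the sheet-like network of basement membranes. Some collagens sit in the plasma membrane or bind to the surface of fibers, and type VII and type XVII collagen help to fasten stratified epithelium to the tissue beneath it.

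Of the 44 chains, 11 had a mean of at least 1 FPKM over both ages, or 25% of the chains, compared with 54.2% of all genes. A further 15 chains had a mean from 0.1 to 1 FPKM and 18 lay under 0.1 FPKM. Col13a1, a transmembrane collagen, was listed at 0 at both ages. The summed level of the 44 chains was 179 FPKM at 2 months and 199.7 at 6 months. Col17a1 alone made up 74.4% of that sum at 2 months and 76.2% at 6 months, and Col7a1 made up 10.5% and 10.1%. The remaining 42 chains summed to 27.0 FPKM at 2 months and 27.4 at 6 months.

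**Figure D1:**
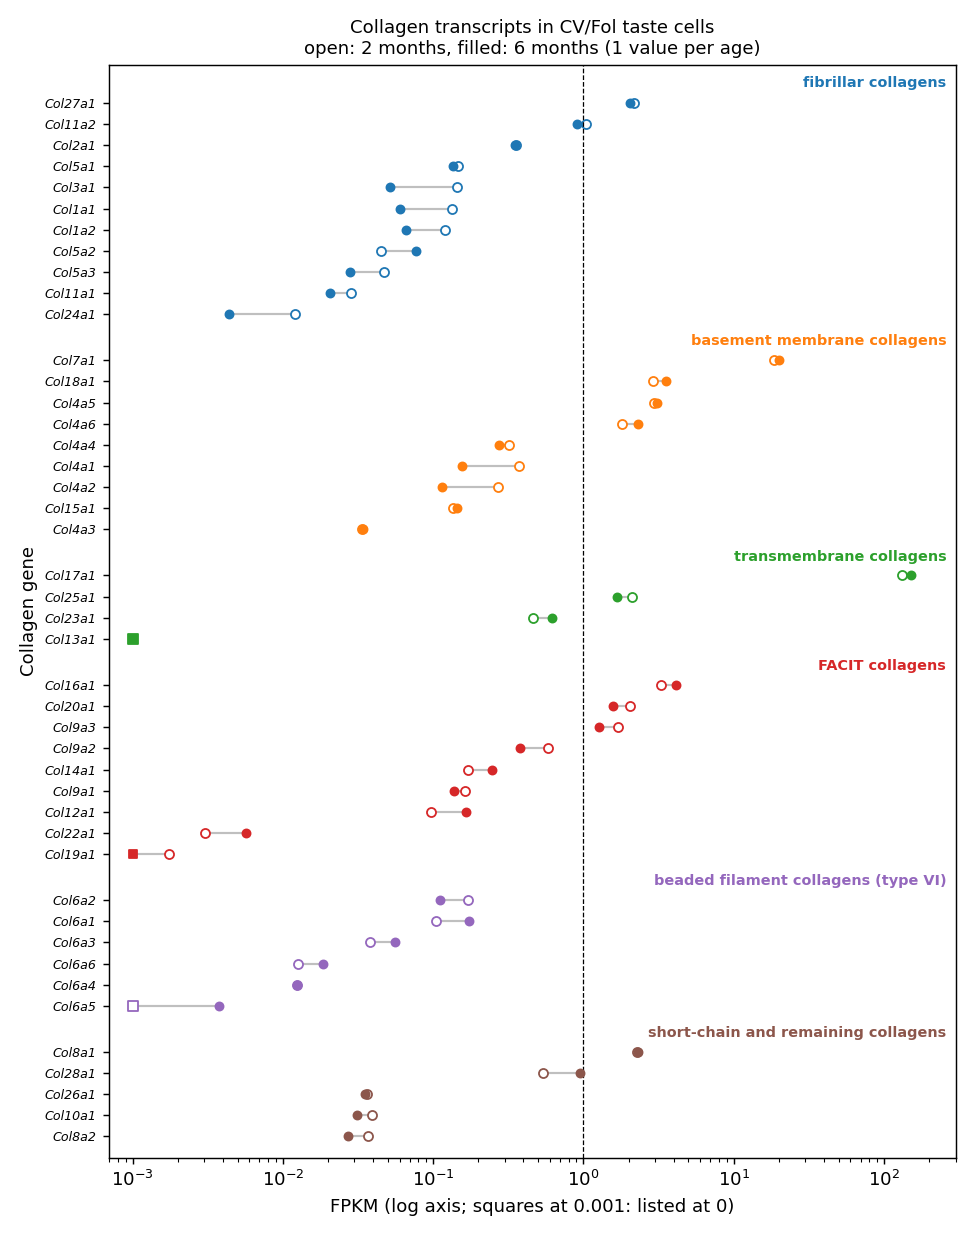
FPKM of the 44 collagen chains in CV/Fol taste cells on a log axis, with 1 row per gene grouped by class, an open symbol for 2 months and a filled symbol for 6 months, squares drawn at 0.001 for values listed at 0, and a dashed line at 1 FPKM. Col17a1 and Col7a1 stand to the right of all other chains at both ages, and 11 of 44 chains have a mean of at least 1 FPKM.

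None of the 11 chains with a mean of at least 1 FPKM differed by 1.5-fold or more between the ages on the scale of FPKM + 1. Among all 12652 genes at that level, 1.05% were higher and 1.72% were lower at 6 months by that size, so a count of 0 among 11 chains is near the background. Of the 11 chains, 7 had a higher and 4 a lower level at 6 months. Their log2 differences (6 months minus 2 months, on FPKM + 1) ran from -0.25 to 0.26 with a median of 0.05. Over all genes the median log2 difference was -0.01, with quartiles of -0.10 and 0.08 and a range from -0.30 to 0.24 between the 5th and 95th percentiles. In RNA from pooled cells, fewer cells of a type and less RNA per cell cannot be told apart.

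Col17a1 had the highest level of the collagens. It encodes the chain of type XVII collagen, a transmembrane protein of hemidesmosomes, the junctions that hold basal keratinocytes to the basement membrane. Its level was 133 FPKM at 2 months, rank 660 among 23361 genes, and 152 FPKM at 6 months, rank 543. The log2 difference was 0.19. The gene spans chr19:47646341-47692042 (GRCm38) and its longest annotated transcript has 54 exons.

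The hemidesmosome partners of type XVII collagen were looked up after the collagen values had been seen. Itgb4, the beta subunit of the laminin-binding integrin of hemidesmosomes, had a level of 59.0 FPKM at 2 months and 70.4 at 6 months, a log2 difference of 0.25. Plec, the plakin that ties the junction to keratin filaments, had 26.0 FPKM and 33.2 FPKM, a log2 difference of 0.34. Dst, which encodes a plakin of the same plaque, had 10.8 FPKM and 13.0 FPKM. Those 3 genes and Col17a1 all had a higher value at 6 months. By contrast, Itga6, the partner subunit of Itgb4, had levels of 29.4 FPKM and 29.5 FPKM, and Cd151, a tetraspanin bound to that integrin, had 65.2 FPKM and 63.1 FPKM. None of the 5 partners differed by 1.5-fold or more, and their median log2 difference was 0.24. The 7 basal keratinocyte markers, which share Itga6, Itgb4 and Dst with this group, had a median log2 difference of 0.00, the value of Itga6. Of these markers 4 had a higher and 3 a lower level at 6 months. Krt14 had a log2 difference of 0.25, and Krt15, Krt5 and Trp63 had -0.10, -0.15 and -0.17.

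Col7a1 was second among the collagens. It encodes type VII collagen, the anchoring fibril that reaches from the basement membrane into the connective tissue and is made by keratinocytes and fibroblasts. Its level was 18.7 FPKM at 2 months and 20.2 at 6 months, a log2 difference of 0.10. Col17a1 exceeded Col7a1 by a ratio of FPKM of 7.10 at 2 months and 7.54 at 6 months. The gene lies at chr9:108953586-108984875 and its longest annotated transcript has 119 exons.

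The other basement membrane chains were far less abundant. Col18a1, whose product carries the endostatin fragment at its end, had a level of 2.92 FPKM at 2 months and 3.57 at 6 months, a log2 difference of 0.22. Col4a5 and Col4a6 encode chains of a type IV network that is found in epithelial basement membranes. Col4a5 had 2.96 FPKM and 3.11 FPKM, a log2 difference of 0.05. Col4a6 had 1.80 FPKM and 2.31 FPKM, a log2 difference of 0.24. All 4 basement membrane chains with a mean of at least 1 FPKM therefore had a higher value at 6 months, with a median log2 difference of 0.16, and the summed level of all 9 went from 27.5 FPKM to 29.9 FPKM.

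Col4a1 and Col4a2 encode the chains of the type IV network that occurs in nearly all basement membranes. Both lay under 1 FPKM in the isolated cells. Col4a1 had a level of 0.371 FPKM at 2 months and 0.156 at 6 months, a ratio of 0.421. Col4a2 had 0.269 FPKM and 0.115 FPKM, a ratio of 0.428. Their ratio to each other was 1.38 at 2 months and 1.36 at 6 months, so the values of this pair stood lower at 6 months by a like factor. Col4a5 exceeded Col4a1 by a ratio of 7.97 at 2 months and 19.9 at 6 months.

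Of the other low basement membrane chains, Col4a4 had a level of 0.319 FPKM at 2 months and 0.273 at 6 months, and its partner chain Col4a3 had 0.0336 FPKM and 0.0341 FPKM. Col4a4 thus exceeded Col4a3 by a ratio of 9.49 at 2 months and 8.01 at 6 months, although the protein chains assemble together in a network best known from the kidney. The level of Col4a3 stood for about 15 fragments at 2 months and 16 at 6 months, by an estimate from the lowest values described with the fibrillar chains, and the gene shares 563 exonic bases with C430014B12Rik on the opposite strand. Col15a1, a relative of Col18a1, had 0.135 FPKM and 0.145 FPKM.

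The fibrillar collagens, the bulk of the collagen in connective tissue, were nearly absent by comparison. Their summed level was 4.28 FPKM at 2 months and 3.77 at 6 months, or 2.40% and 1.89% of the collagen total. More than any other chain this sum came from Col27a1, which encodes a minor fibrillar collagen known from cartilage, at 2.19 FPKM and 2.06 FPKM with a log2 difference of -0.06. Col11a2 followed just under the limit of 1 FPKM, with levels of 1.05 FPKM at 2 months and 0.915 at 6 months. Col2a1, the main collagen of cartilage, had 0.356 FPKM and 0.352 FPKM.

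The chains of type I and type III collagen, the main fibrillar collagens of connective tissue, all lay under 0.2 FPKM. Col1a1 had a level of 0.134 FPKM at 2 months and 0.0599 at 6 months, a ratio of 0.448. Col1a2, which joins Col1a1 in the type I molecule, had 0.121 FPKM and 0.0658 FPKM, a ratio of 0.545. Col3a1, the chain of type III collagen, had 0.144 FPKM and 0.0518 FPKM, a ratio of 0.360. Each value was lower at 6 months, and the 3 levels summed to 0.398 FPKM at 2 months and 0.177 at 6 months.

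These low values rest on few fragments. For genes with 1 annotated transcript, the median of FPKM times length in kilobases was taken in a window from 0.01 to 0.028. By this rule, 1 fragment was worth about 0.0194 FPKM at 2 months and 0.0185 at 6 months for a transcript of 1 kilobase. The window was set after seeing the values, and its limits partly fix the result. By that estimate the level of Col1a1 stood for about 41 fragments at 2 months and 19 at 6 months, Col3a1 for about 41 and 16, and Col4a1 for about 127 and 56. The level of Col17a1 stood for about 38350 and 45953 fragments. These numbers are approximate and cover counting only, not the spread between pools.

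The pattern at low levels was therefore set beside all genes of the same range, with ratios of FPKM taken without a pseudocount, a choice made after the values had been seen. Of the 44 chains, 19 had a mean from 0.05 to 1 FPKM and were above 0 at both ages. Among them 7 were lower at 6 months by a ratio of at least 1.5, 4 were higher by that size and 8 differed less. Over the 3912 genes of that range, 14.1% were lower and 15.2% were higher by that size. The median ratio was 0.868 over the 19 chains and 1.02 over the 3912 genes. The 7 lower chains were Col1a1, Col1a2, Col3a1, Col4a1, Col4a2, Col6a2 and Col9a2, and the 4 higher ones were Col5a2, Col6a1, Col12a1 and Col28a1. Among all genes of the range, the 5th and 95th percentiles of the ratio were 0.456 and 2.17, and the ratios of Col1a1, Col3a1, Col4a1 and Col4a2 lay under the lower of these. Of the 7 lower chains, all but Col9a2 had a mean from 0.05 to 0.3 FPKM. Of 2161 genes with a mean in that narrower range, 18.7% were lower at 6 months by a ratio of at least 1.5. By a ratio of at least 2, 188 or 8.70% were lower.

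**Figure D2:**
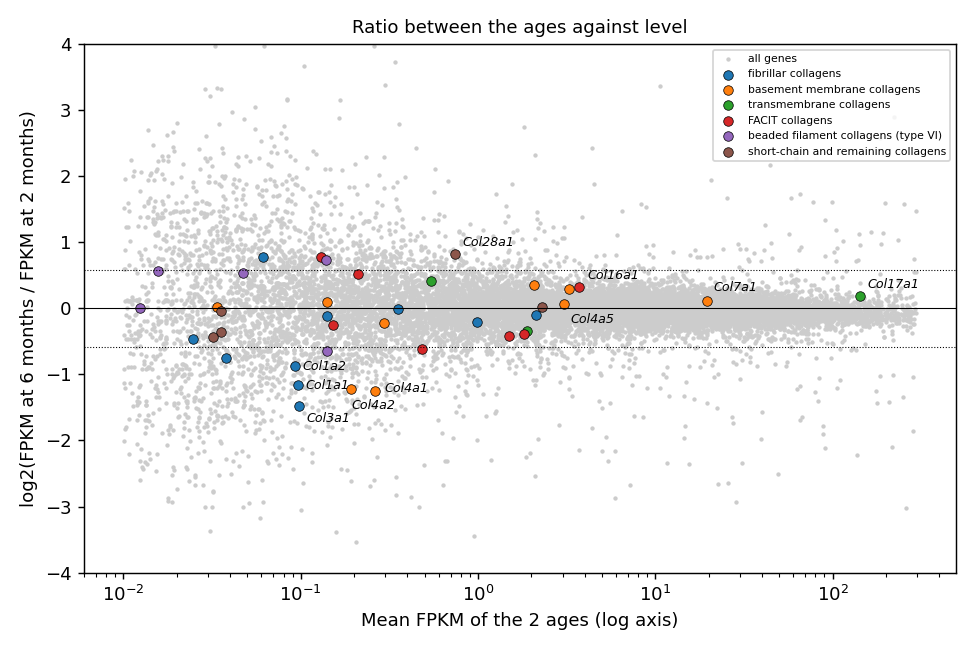
Log2 ratio of FPKM at 6 months over 2 months, without a pseudocount, against the mean FPKM of both ages on a log axis, with collagen chains in color by class over all genes in grey and dotted lines at a ratio of 1.5. The plot shows 17254 genes above 0 at both ages with a mean from 0.01 to 300 FPKM, and 31 genes beyond its vertical limits are not drawn. The spread of all genes widens toward low levels, where Col1a1, Col1a2, Col3a1, Col4a1 and Col4a2 lie below the lower dotted line, while Col17a1 and Col7a1 lie near 0.

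Markers of cells that make these collagens in other tissues were looked at beside them. Of 10 fibroblast markers, 5 reached a mean of 1 FPKM, and the summed level of all 10 was 73.1 FPKM at 2 months and 65.2 at 6 months. The most abundant was Dcn, a small proteoglycan that binds collagen fibers, at a level of 42.0 FPKM and 27.3 FPKM. Its log2 difference of -0.60 was the only one of the list past 1.5-fold. Without Dcn the list summed to 31.1 FPKM at 2 months and 37.9 at 6 months, and the median log2 difference of the 5 markers was 0.13. Of the 5 markers with a mean under 1 FPKM, 3 had a lower level at 6 months. They were Mfap5, a microfibril protein, at 0.106 FPKM and 0.0118 FPKM, Dpt at 0.421 FPKM and 0.344 FPKM, and Twist2 at 0.501 FPKM and 0.419 FPKM. The other two had a higher level, with Lum, a proteoglycan related to Dcn, at 0.0944 FPKM and 0.117 FPKM and Fbn1 at 0.648 FPKM and 0.818 FPKM. No fibroblast marker was listed at 0. The part of fibroblasts in the low fibrillar values was not tested.

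Endothelial markers were low at both ages. Of 8 markers, 1 had a mean of at least 1 FPKM, namely Tek, a receptor of the angiopoietins, at levels of 1.57 FPKM and 1.55 FPKM. The list summed to 2.78 FPKM at each age, and Cdh5, Cldn5, Emcn and Kdr all lay under 0.1 FPKM. The list of 8 pericyte and smooth muscle markers summed to 37.6 FPKM at 2 months and 43.7 at 6 months, most of it from Notch3 at 31.9 FPKM and 37.4 FPKM, while Pdgfrb and Myh11 lay under 0.1 FPKM at both ages. Of the 8 markers 5 had a higher and 3 a lower level at 6 months. Cspg4 had 0.781 FPKM and 1.41 FPKM and Des had 0.337 FPKM and 0.532 FPKM, whereas Rgs5 had 0.123 FPKM and 0.0565 FPKM. None of these endothelial, pericyte or smooth muscle markers was listed at 0 at both ages, none with a mean of at least 1 FPKM differed by 1.5-fold on FPKM + 1, and their part in the Col4a1 and Col4a2 values was not tested.

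The other lists covered glia, muscle and cartilage. The 7 Schwann cell markers summed to 65.4 FPKM at 2 months and 66.8 at 6 months, led by Erbb3, a receptor of neuregulins, at 45.9 FPKM and 48.6 FPKM. None was past 1.5-fold on FPKM + 1, where Sox10, a transcription factor of glia, had a log2 difference of -0.53 from levels of 1.95 FPKM and 1.05 FPKM, and Mbp, a myelin protein, had 16.2 FPKM and 16.0 FPKM. The 8 skeletal muscle markers summed to 21.8 FPKM and 34.3 FPKM, led by Tnni2, a troponin subunit, at 11.2 FPKM and 11.9 FPKM. Among the 7 that reached a mean of 1 FPKM, 5 were higher at 6 months by at least 1.5-fold. Of all 12652 genes at that level, 1.05% were higher by that size. The median log2 difference of the 7 muscle markers was 0.78. Those farthest apart were Tnnc2, Mb and Acta1, which encode a troponin subunit, myoglobin and skeletal actin. Tnnc2 had a level of 2.14 FPKM at 2 months and 5.57 at 6 months, Mb had 1.82 FPKM and 4.28 FPKM, and Acta1 had 1.98 FPKM and 4.15 FPKM. The part of muscle in the collagen differences was not tested.

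Cartilage markers were set beside the levels of Col2a1, Col9a3, Col11a2 and Col27a1. The list of 6 summed to 7.30 FPKM at 2 months and 8.14 at 6 months, nearly all of it from Sox9, a transcription factor also made in epithelia, at 7.13 FPKM and 8.04 FPKM. The defining matrix genes Acan, Matn1 and Matn3 were listed at 0 at both ages, while Hapln1, a link protein, had levels of 0.141 FPKM and 0.0858 FPKM and Lect1 had 0.0293 FPKM and 0.0161 FPKM.

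Among the collagens that bind to fiber surfaces, known as FACIT collagens, 3 of 9 had a mean of at least 1 FPKM. Col16a1, a minor collagen of this class, had a level of 3.28 FPKM at 2 months and 4.11 at 6 months, a log2 difference of 0.26. Col20a1 had 2.06 FPKM and 1.58 FPKM, a log2 difference of -0.25. Col9a3, a chain of type IX collagen, had 1.71 FPKM and 1.28 FPKM, a log2 difference of -0.25. The class thus held chains with a higher and chains with a lower value at 6 months, and its summed level was 8.08 FPKM at 2 months and 7.91 at 6 months. Over all types that are neither fibrillar nor of the basement membrane, 6 of 24 chains had a mean of at least 1 FPKM, with a median log2 difference of -0.11 that turned to 0.19 where a mean of 5 FPKM was asked, which left Col17a1 alone.

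Type IX collagen is a trimer of Col9a1, Col9a2 and Col9a3, but the transcripts were far from equal. Col9a2 had a level of 0.584 FPKM at 2 months and 0.380 at 6 months, and Col9a1 had 0.164 FPKM and 0.138 FPKM. Col9a3 exceeded Col9a1 by a ratio of 10.4 at 2 months and 9.30 at 6 months. All 3 chains had a lower value at 6 months. Col9a3 shares 234 exonic bases with Tcfl5 on the opposite strand, and since the library kit is not stated to keep strand, reads from that stretch cannot be assigned to either gene. The level of Tcfl5 was 0.0519 FPKM at 2 months and 0.0339 at 6 months.

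Of the transmembrane collagens other than Col17a1, Col25a1, which encodes a collagen first found in amyloid plaques of the brain, had a level of 2.12 FPKM at 2 months and 1.67 at 6 months, a log2 difference of -0.22. Col23a1 had 0.466 FPKM and 0.623 FPKM. Col8a1 was the only short-chain collagen with a mean of at least 1 FPKM, at 2.28 FPKM and 2.30 FPKM with a log2 difference of 0.01. Its product can assemble with that of Col8a2, which Col8a1 exceeded by a ratio of 61.8 at 2 months and 84.2 at 6 months, with about 8 and 6 fragments behind the level of Col8a2. Col28a1, which in other tissues is known from peripheral nerve, had 0.536 FPKM and 0.949 FPKM, a ratio of 1.77, or about 117 and 217 fragments.

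None of the 6 chains of type VI collagen, which forms beaded filaments around cells, reached a mean of 1 FPKM, and they summed to 0.340 FPKM at 2 months and 0.375 at 6 months. Col6a1 had a level of 0.105 FPKM and 0.174 FPKM, and Col6a2 had 0.172 FPKM and 0.111 FPKM. The ratio of Col6a1 to Col6a2 was 0.607 at 2 months and 1.58 at 6 months, so these partner chains stood in opposite order at the 2 ages, at about 22 and 44 fragments at 2 months and 39 and 29 at 6 months. Col6a5 was listed at 0 at 2 months, and Col19a1, a FACIT collagen, was listed at 0 at 6 months. Col4a3bp, kept apart from the chains, had 13.9 FPKM and 14.5 FPKM.

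New collagen chains are hydroxylated, folded and carried out of the cell by a set of enzymes and chaperones. Of 19 such genes, 17 reached a mean of 1 FPKM and none differed by 1.5-fold, with a median log2 difference of -0.06. At 6 months 5 were higher and 12 lower, or 8 higher and 9 lower once the ages were scaled to the same upper quartile. P4hb, the protein disulfide isomerase that is also a subunit of prolyl hydroxylase, was the most abundant at a level of 346 FPKM at 2 months and 331 at 6 months. Serpinh1, the chaperone dedicated to collagen, had levels of 37.2 FPKM and 28.4 FPKM, a log2 difference of -0.38, and P4ha1, a catalytic subunit of prolyl hydroxylase, had 6.42 FPKM and 8.26 FPKM, a log2 difference of 0.32. These 2 genes were named after their values were seen. Many of these genes also serve other secreted proteins.

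Outside the cell, procollagens are trimmed and cross-linked. Of 13 genes for these steps, 4 had a mean of at least 1 FPKM, none of them past 1.5-fold, with a median log2 difference of 0.14. Bmp1, a procollagen proteinase, led with 8.46 FPKM and 8.86 FPKM, and Tll2, its relative, was listed at 0. Of 13 genes for collagen breakdown and its inhibitors, 5 had a mean of at least 1 FPKM, again none past 1.5-fold, with a median log2 difference of -0.02. Mmp2, a gelatinase, had the highest level at 33.9 FPKM and 34.5 FPKM, and Mmp3 was listed at 0.

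Of 9 collagen receptor genes, 3 had a mean of at least 1 FPKM, none of them past 1.5-fold, with a median log2 difference of 0.03. Ddr1, a receptor tyrosine kinase of epithelia that binds collagen, had a level of 97.1 FPKM at 2 months and 99.2 at 6 months. Gp6, the collagen receptor of platelets, was listed at 0.

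The bases before the gene starts were read from RefSeq promoter windows (GRCm38.p6), which run from 250 bases before to 50 bases after each start. Windows of 35 of the 44 chains were found by symbol, and they include 10 of the 11 chains with a mean of at least 1 FPKM, all but Col9a3. Each window was searched on both strands for TGANTCA, the letters bound by AP-1, for GGGCGG, the GC box, and for CCAAT. The AP-1 letters were in the windows of 1 of 35 chains, Col6a1, and of 0 of those 10, compared with 8.97% of 27025 genes. The GC box was in the windows of 22 of 35 chains, or 62.9%, and of 8 of those 10, compared with 38.2% of all genes. CCAAT was in 13 of 35, or 37.1%, and in 6 of those 10, compared with 41.1% of all genes. A match is a description of the letters and a missing match says only that they are not in the window.

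The most abundant collagens are shown as examples of windows with and without a GC box. Capitals mark the letters of GGGCGG or CCAAT on either strand, and only the bases before the start are printed. The stretch for Col17a1 is chr19:47692043-47692292 on the minus strand and holds CCAAT on the opposite strand. The stretch for Col7a1 is chr9:108953336-108953585 on the plus strand and holds CCAAT on the opposite strand and GGGCGG.
Col17a1: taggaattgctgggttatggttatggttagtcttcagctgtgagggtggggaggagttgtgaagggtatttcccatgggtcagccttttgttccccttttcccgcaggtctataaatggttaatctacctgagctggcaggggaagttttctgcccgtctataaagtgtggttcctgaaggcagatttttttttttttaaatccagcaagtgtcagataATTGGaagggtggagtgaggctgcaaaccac
Col7a1: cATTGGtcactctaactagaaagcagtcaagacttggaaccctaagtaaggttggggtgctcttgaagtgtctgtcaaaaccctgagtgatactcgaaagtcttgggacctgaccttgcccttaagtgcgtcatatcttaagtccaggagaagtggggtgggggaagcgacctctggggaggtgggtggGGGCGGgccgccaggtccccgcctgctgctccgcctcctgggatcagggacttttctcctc

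Col4a1 and Col4a2 lie head to head on chromosome 8, and their RefSeq gene bounds overlap by 85 bases. In the GENCODE annotation, exons of both genes share 22 bases in opposite directions. By the starts in the RefSeq promoter windows, the 2 genes overlap at chr8:11312805-11312826, also 22 bases. This stretch is shown because it is shared by the pair with like ratios between the ages, and it is given on the plus strand, the direction of Col4a2, with the letters of GGGCGG in capitals.
Col4a1 and Col4a2: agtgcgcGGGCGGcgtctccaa
Col4a5 and Col4a6 are also arranged head to head, on the X chromosome, with 1274 bases between their annotated ends. The ratio of Col4a5 to Col4a6 was 1.64 at 2 months and 1.35 at 6 months. The gene bounds of the pair Col4a3 and Col4a4 overlap by 114 bases, and there the ratio between the ages was 1.01 for Col4a3 and 0.854 for Col4a4.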

How the data were processed

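Poly(A) libraries of CV/Fol taste cell RNA were made with the TruSeq RNA kit, which is not stated to keep strand, so reads of a gene and its antisense partner cannot be told apart. The authors aligned them to GRCm38/mm10 in TopHat2 2.0.7 with the iGenomes RefSeq annotation, quantified them with Cufflinks 2.1.1 and compared the ages with Cuffdiff. The authors deposited 1 FPKM value per gene and age, and the library normalization behind it is not given in the sources used here. The deposited table also holds a p-value column of the authors' own comparison, which was not used.

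From the FPKM values, log2(FPKM + 1) at 6 months minus 2 months was computed with Python 3.11.15, pandas 2.3.3 and numpy 2.4.6, and figures were drawn with matplotlib 3.10.9. No test was run. A gene was counted as past the fold at 1.5-fold or more on FPKM + 1 with a mean of at least 1 FPKM, and the computation was tested on simulated data. The collagens and gene lists were chosen with earlier results of these data known. Every collagen with a mean of at least 1 FPKM is named with its values. Of the chains under it, which were to be given by count and range, those discussed by class or ratio were picked after their values were seen. Of other lists the most abundant gene, at most 3 genes in each direction past 1.5-fold and genes listed at 0 are named, and any others, the hemidesmosome partners, Tcfl5 and the proteins with collagen-like helices outside the family among them, were also picked after the values were seen.

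Transcript lengths, exon counts and shared exonic bases were taken from the GENCODE annotation, not from the RefSeq annotation behind the FPKM values. The worth of 1 fragment was estimated from 4733 genes with 1 annotated transcript. It was the median of FPKM times length in kilobases between 0.01 and 0.028, a window set after seeing the values. That window held 198 genes at 2 months and 183 at 6 months. The estimate cannot fall outside the window, so the window limits partly set its value. The planned count of glycine repeats in collagen proteins was not analysed here.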

Additional observations from a re-analysis of the deposited data

How the results depend on the processing

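No paired analysis was possible because the deposited table holds no value per pool, and for the same reason no pool was left out in turn. The count of collagens past the fold was 0 with a pseudocount of 0.1 FPKM, with equal upper quartiles, with a filter of 5 FPKM, and at a smaller and a larger fold. It was also 0 with no filter, but on FPKM + 1 a gene under 0.5 FPKM at both ages cannot pass, so that count says nothing of the lowest chains. Without a filter 43 chains counted as present, and at a mean of at least 5 FPKM 2 did.

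The median log2 difference of all chains was 0.07 with a pseudocount of 0.1 FPKM, 0.09 with equal upper quartiles, 0.00 without a filter and 0.15 at 5 FPKM. For fibrillar chains it was -0.09, -0.03 and -0.03 under the same settings in that order, the filtered values from Col27a1 alone, and no fibrillar chain reached 5 FPKM. For basement membrane chains it was 0.20, 0.20, 0.01 and 0.10, the last from Col7a1 alone, and 0.15 for type IV alone. For the other types it was -0.16, -0.08, 0.00 and 0.19, the last from Col17a1 alone, compared with -0.11 as reported. No log2 difference of the 11 named chains changed sign with the other pseudocount or with equal upper quartiles. Their range was from -0.39 to 0.34 with a pseudocount of 0.1 FPKM and from -0.22 to 0.29 with equal upper quartiles. With that pseudocount Col9a3 moved to -0.39, Col20a1 to -0.37 and Col25a1 to -0.33, while Col4a6 moved to 0.34. Of 12 list medians, 3 changed sign with equal upper quartiles, to 0.02 for collagen breakdown, 0.01 for endothelium and 0.02 for Schwann cells.

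The count of low chains with a ratio of at least 1.5 was less stable, under alternatives chosen after seeing the data. At 2-fold 4 chains were lower and 0 higher, compared with 6.26% and 5.96% of all genes of the range. Of 15 chains from 0.1 to 1 FPKM 4 were lower and 3 higher, compared with 12.3% and 12.5%. With a pseudocount of 0.1 FPKM 3 were lower and 1 higher, compared with 6.37% and 6.65%. With equal upper quartiles 6 were lower and 4 higher, compared with 12.8% and 17.0%. The few fragments behind these chains limit what their ratios can show.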

Other observations

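Proteins outside the collagen family also carry collagen-like helices, and 17 of their genes were looked up after the collagen values had been seen. Of these, 4 reached a mean of 1 FPKM, none of which differed by 1.5-fold. The chains of complement C1q, a defense protein made mainly by macrophages, had the highest levels. C1qa had a level of 11.8 FPKM at 2 months and 11.4 FPKM at 6 months, C1qb had 11.0 FPKM and 11.2 FPKM, and C1qc had 9.88 FPKM and 9.08 FPKM. Each of these levels exceeded that of every collagen chain but Col17a1 and Col7a1. Colec12, a scavenger receptor, had 1.32 FPKM and 1.48 FPKM, and Colec10 and Mbl2 were listed at 0.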
